A study of Homo sapiens with 8 samples.

Results

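The p53 and RB pathway genes described here were MDM2, CDKN1A, CDKN1B, CDKN2A, CDKN2B, RB1, CCND1, CCNE1 and E2F1, 9 of the 19970 protein-coding genes of GENCODE 44 on the autosomes and chromosome X. They were listed by name, with no measured value in the rule, but with earlier results of these data known. A ChIP-seq peak was assigned to a gene when its summit, the base with the highest signal, lay in the annotated gene or within 5 kb of it. A gene could hold several peaks, and a peak could be assigned to more than 1 gene.

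The peaks came from chromatin immunoprecipitation followed by sequencing in U-2 OS, a human osteosarcoma cell line, crosslinked for 6 min in 1% formaldehyde. A U-2 OS clone with V5 and Halo tags knocked in at SP1 gave 1 library with Sp1 antibody 1, 1 with Sp1 antibody 2, 1 with normal rabbit IgG and 1 input. Clone C32, with FLAG and Halo tags knocked in at CTCF, gave 2 replicate CTCF libraries with 1 input each. The sample labels, which name clone C32, were followed for the CTCF cells, although the series text calls them wild-type. The sample titles call the Sp1 cells a parental cell line, and their SP1 knock-in is taken from the study's methods. Each engineered line is 1 clone. The study's methods also name different sequencing platforms for the CTCF and the Sp1 libraries. The target protein, the cell line and the platform cannot be told apart in any contrast between Sp1 and CTCF.

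The p53 protein accumulates after DNA damage and other stress and switches on CDKN1A and MDM2. CDKN1A encodes p21, which inhibits cyclin-dependent kinases, and MDM2 encodes the ubiquitin ligase that returns p53 to a low level. In the RB pathway, D-type cyclins and cyclin E activate kinases that phosphorylate the RB1 protein and release E2F factors such as E2F1, which drive genes of S phase. CDKN2A, CDKN2B and CDKN1B encode inhibitors of those kinases, and CDKN2A also encodes ARF, an inhibitor of MDM2. Sp1 is a zinc finger activator known for binding GC boxes in promoters, whereas CTCF is a zinc finger protein known for organizing chromatin loops and boundaries.

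Sp1 antibody 1 gave a peak at 6 of the 9 genes, beside 44.5% of all protein-coding genes, and antibody 2 gave a peak only at CDKN1A, beside 31.1%. CTCF peaks were present at 7 genes in replicate 1, beside 68.3%, and at 6 in replicate 2, beside 61.8%, so the CTCF counts were near their background. CDKN1A was the only gene of the 9 with a peak in all 4 lists, beside 18.8% of all genes, and CDKN2A was the only gene with none, beside 20.2%. MDM2 and CDKN2B carried CTCF peaks without an Sp1 peak, whereas CCNE1 carried an Sp1 peak without a CTCF peak. The shares of all genes with such combinations were not counted, so these are descriptions of single genes. The IgG list had 0 peaks at the 9 genes, but it held only 106 peaks in all, against 5973 to 42765 in the 4 lists. Its share over all genes was not counted, and with so few peaks a count of 0 says little about these genes.

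The bases around the strongest Sp1 or CTCF peak of several of the genes are shown first, because the sites differed in the motifs they held. For E2F1 the CTCF window is left out, since most of it repeats the Sp1 window. Each run is hg38 sequence in the sense of the gene, read 5′ to 3′ over up to 50 bp on either side of the summit, with any UTR bases left out. Capitals mark a GC box, GGGCGG on either strand, or a 12-base CTCF core motif on either strand with at most 1 mismatch. The Sp1 windows are those of antibody 1 at an intron of CDKN1A (chr6:36680247-36680347, plus strand), at the RB1 peak near RCBTB2 (chr13:48532727-48532827, plus strand) and upstream of CCND1 (chr11:69641058-69641155, plus strand), CCNE1 (chr19:29811271-29811371, plus strand) and E2F1 (chr20:33686621-33686721, minus strand).
CDKN1A Sp1: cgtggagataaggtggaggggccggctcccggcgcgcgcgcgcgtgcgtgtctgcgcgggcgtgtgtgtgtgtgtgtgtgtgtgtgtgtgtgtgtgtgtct
RB1 Sp1: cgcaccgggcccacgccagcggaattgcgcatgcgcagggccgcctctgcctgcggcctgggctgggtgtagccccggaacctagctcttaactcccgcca
CCND1 Sp1: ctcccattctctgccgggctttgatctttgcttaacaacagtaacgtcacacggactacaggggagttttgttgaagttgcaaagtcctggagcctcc
CCNE1 Sp1: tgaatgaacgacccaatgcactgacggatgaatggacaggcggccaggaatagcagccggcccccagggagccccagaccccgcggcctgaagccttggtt
E2F1 Sp1: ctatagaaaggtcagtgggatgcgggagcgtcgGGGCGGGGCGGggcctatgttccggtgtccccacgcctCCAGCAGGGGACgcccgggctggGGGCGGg
Of these 5 windows only that of E2F1 held a GC box. It held 3 of them, of which a pair overlapped, together with 1 CTCF core.

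The CTCF windows are those of replicate 1 at the MDM2 start site (chr12:68808116-68808176, plus strand), a noncoding exon of CDKN1A (chr6:36680588-36680688, plus strand), an intron of CDKN1B (chr12:12704795-12704895, plus strand), an exon of CDKN2B (chr9:22008730-22008830, minus strand), the RB1 peak near LINC00462 (chr13:48580359-48580459, plus strand) and an intron of CCND1 (chr11:69643475-69643575, plus strand).
MDM2 CTCF: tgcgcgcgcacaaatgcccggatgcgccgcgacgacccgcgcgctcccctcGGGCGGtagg
CDKN1A CTCF: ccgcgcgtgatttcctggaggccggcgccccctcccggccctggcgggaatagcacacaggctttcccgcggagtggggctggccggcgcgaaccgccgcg
CDKN1B CTCF: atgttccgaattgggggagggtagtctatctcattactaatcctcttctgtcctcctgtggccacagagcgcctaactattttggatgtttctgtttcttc
CDKN2B CTCF: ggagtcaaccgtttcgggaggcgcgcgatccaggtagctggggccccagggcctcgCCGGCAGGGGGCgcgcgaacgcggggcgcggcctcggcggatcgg
RB1 CTCF: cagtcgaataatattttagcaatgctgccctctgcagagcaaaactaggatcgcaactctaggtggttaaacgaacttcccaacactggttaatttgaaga
CCND1 CTCF: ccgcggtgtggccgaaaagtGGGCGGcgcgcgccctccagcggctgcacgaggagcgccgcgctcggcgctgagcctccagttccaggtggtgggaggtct
The CDKN2B window held a CTCF core with 1 mismatch, the MDM2 and CCND1 windows each held a GC box, and the CDKN1A, CDKN1B and RB1 windows held neither motif by these letters. A match or its lack describes these letters in these windows and was not tested as a binding site.

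MDM2 (ENSG00000135679.27, chr12:68808177-68845544, plus strand) had CTCF at its start site and no Sp1 peak. In CTCF replicate 1 the summit lay 11 bp upstream of the start site of the MANE Select transcript, the reference transcript of the gene, with a fold enrichment over control of 37.9 and a −log10 q of 169. In replicate 2 the summit lay 5 bp inside the first, untranslated exon, with a fold of 17.7 and a −log10 q of 65.5. The summits were 16 bp apart, and the peaks stood at percentiles 57.7 and 46.3 of their own lists by fold. Another CTCF peak stood in an intron 22.2 kb into the gene with a weaker fold of 19.7 in replicate 1 and of 11.9 in replicate 2. The nearest Sp1 summit to MDM2 was 121 kb away in both antibody lists.

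CDKN1A (ENSG00000124762.14, chr6:36676460-36687337, plus strand) was bound in every list, but with very unequal strength. With antibody 1, Sp1 had a peak 47 bp past the MANE start site at chr6:36678712-36679005, with a fold of 3.96 and a −log10 q of 4.38. That summit lay 202 bp from a start site of DINOL, a long noncoding RNA. A stronger antibody 1 peak followed in the intron, 1583 bp past the start site, with a fold of 5.31 and a −log10 q of 11.4. The antibody 2 peak overlapped it, with its summit 69 bp away, a fold of 3.94 and a −log10 q of 5.14.

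CTCF at CDKN1A reached a fold of 127 (−log10 q 1724) in replicate 1 and of 84.3 (−log10 q 1042) in replicate 2. Its summits lay 1924 and 1915 bp past the MANE start site, in an exon of a noncoding transcript of the gene. By fold these peaks ranked at percentiles 91.5 and 95.2 of their lists, whereas the 3 Sp1 peaks ranked at 8.43, 24.5 and 10.3. The intronic Sp1 peaks therefore sat beside a strong CTCF peak, with summits 341 bp (antibody 1) and 272 bp (antibody 2) from that of CTCF replicate 1, and the intervals overlapped.

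The 2 genes most like CDKN1A in their highest folds over the 4 lists, among 3744 genes with a peak in each list, were HROB and SH3PXD2A. The distance, taken on the log2 scale over the 4 lists, was 0.15 for HROB, whose folds were 5.35 and 3.85 with the Sp1 antibodies and 118 and 79.3 with CTCF. For SH3PXD2A the distance was 0.22, and its folds were 4.92, 4.17, 142 and 79.5 in the same order.

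**Figure D1:**
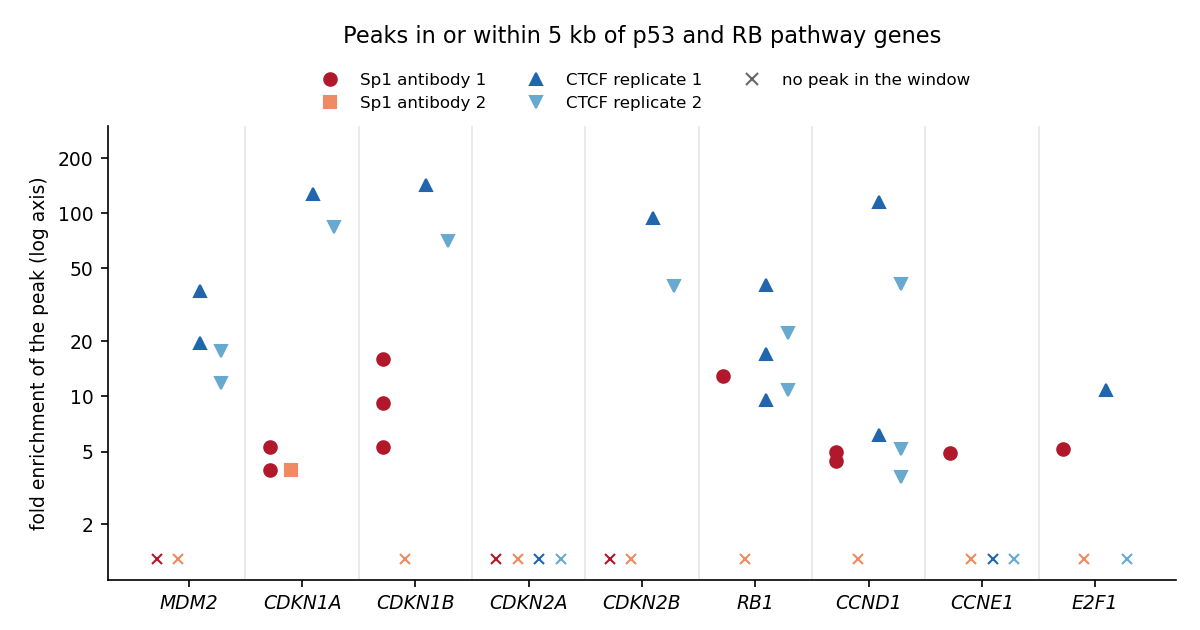
Fold enrichment over control (log axis) of every peak assigned to each of the 9 genes, 1 mark per peak, with colour and shape for the 4 lists and a cross where a list has no peak. No error bars are drawn because each mark is 1 peak of 1 library. CTCF reached 127 and 84.3 at CDKN1A, where Sp1 reached 5.31 and 3.94, and CDKN2A has 4 crosses.

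CDKN1B (ENSG00000111276.12, chr12:12685498-12722369, plus strand) encodes p27, an inhibitor of cyclin E and CDK2 complexes. It carried 3 Sp1 peaks with antibody 1 and none with antibody 2. Only the weakest lay at the MANE start site, 123 bp inside the first exon, with a fold of 5.31 and a −log10 q of 7.20. The strongest, with a fold of 15.9 and a −log10 q of 49.5, lay at −21.1 kb from the MANE start site, 63 bp from the start of a longer CDKN1B transcript and 77 bp from a start site of GPR19, a neighbouring receptor gene. The remaining peak had a fold of 9.22 and a −log10 q of 18.2, and lay 3.52 kb past the gene's end and 29 bp from a start site of APOLD1. The nearest antibody 2 summit to the gene was 73.6 kb away.

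The highest fold at CDKN1B was that of a CTCF peak, at 144 (−log10 q 1378) in replicate 1 and 70.8 (−log10 q 754) in replicate 2. The summits were at positions 12704845 and 12704844 of chromosome 12, in an intron of the longer transcript at −12.5 kb from the MANE start site. They ranked at percentiles 94.0 and 91.4 of their lists. No Sp1 summit at CDKN1B lay within 8561 bp of that of replicate 1.

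CDKN2A (ENSG00000147889.18, chr9:21967752-21995301, minus strand) encodes p16, an inhibitor of CDK4 and CDK6, and ARF. It had no peak in any of the 4 lists. The closest CTCF summit was the CDKN2B peak, 13.5 kb away in both replicates, and on the other side the closest was 155 kb away. The stretch without a CTCF summit that holds CDKN2A was 196 kb long in both replicates, a length reached by 7.67% of the gaps between neighbouring summits in replicate 1 and 10.4% in replicate 2, and such gaps made up 40.1% and 47.0% of all sequence between summits. For Sp1 antibody 1 the stretch was 2024 kb, against a median gap of 88.6 kb, and 3.85% of gaps, with 40.1% of the sequence between summits, were as long. For antibody 2 it was 401 kb, against a median of 153 kb, and 27.9% of gaps, with 83.5% of the sequence, were as long. Gaps of these sizes were thus a minority by count, but held 40.1% to 83.5% of the sequence between summits. These shares were not matched for gene content. Copy number of this region was not measured in the files used here, so whether bases are missing from these cells was not tested.

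CDKN2B (ENSG00000147883.12, chr9:22002903-22009305, minus strand) encodes p15, the inhibitor of CDK4 and CDK6 next to CDKN2A. Its CTCF peak had a fold of 94.6 (−log10 q 552) in replicate 1 and of 39.9 (−log10 q 204) in replicate 2. The summits lay 525 and 536 bp inside the gene from the MANE start site, 11 bp apart. The replicate 1 summit lay in coding exon sequence. These peaks ranked at percentiles 83.6 and 73.5 of their lists. The Sp1 lists had no peak here, and the nearest Sp1 summits were 200.4 kb away with antibody 1 and 194 kb away with antibody 2.

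Around CDKN2A and 500 kb to each side, CTCF summits were about as dense as over the genome, at 12.7 per Mb in replicate 1 against 14.02 and at 11.7 per Mb in replicate 2 against 11.8. Sp1 antibody 1 had 0.973 summits per Mb there against 2.84, and antibody 2 had 1.95 against 1.94. These densities rest on 1 to 13 summits per list.

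RB1 (ENSG00000139687.16, chr13:48303744-48599436, plus strand) encodes the pocket protein that restrains E2F factors. Its annotated span of 295.7 kb is longer than the MANE transcript of 178 kb, and most of its peaks lay in the extra part. The Sp1 antibody 1 peak had a fold of 12.9 and a −log10 q of 27.6. Its summit lay 50.9 kb past the end of the MANE transcript and 25 bp from a start site of RCBTB2, a different gene. No Sp1 summit lay within 5 kb of the RB1 start site, and the antibody 2 list had a stretch of 2695 kb with no summit around the gene, a length reached by 3.86% of its gaps but by gaps holding 35.9% of the sequence between summits.

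CTCF replicate 1 had 3 peaks at RB1 and replicate 2 had 2. Only the weakest was inside the MANE transcript, in an intron 31.0 kb from its start, with a fold of 9.55 and a −log10 q of 22.7, and it was found in replicate 1 alone. The strongest peak lay 277 kb from the start site, 526 bp from a start site of the noncoding gene LINC00462, with a fold of 40.8 in replicate 1 and of 22.2 in replicate 2. Its summit was at the same base, 48580409, in both. The peak farthest along the gene, 292 kb from the start, had a fold of 17.1 in replicate 1 and of 10.9 in replicate 2.

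**Figure D2:**
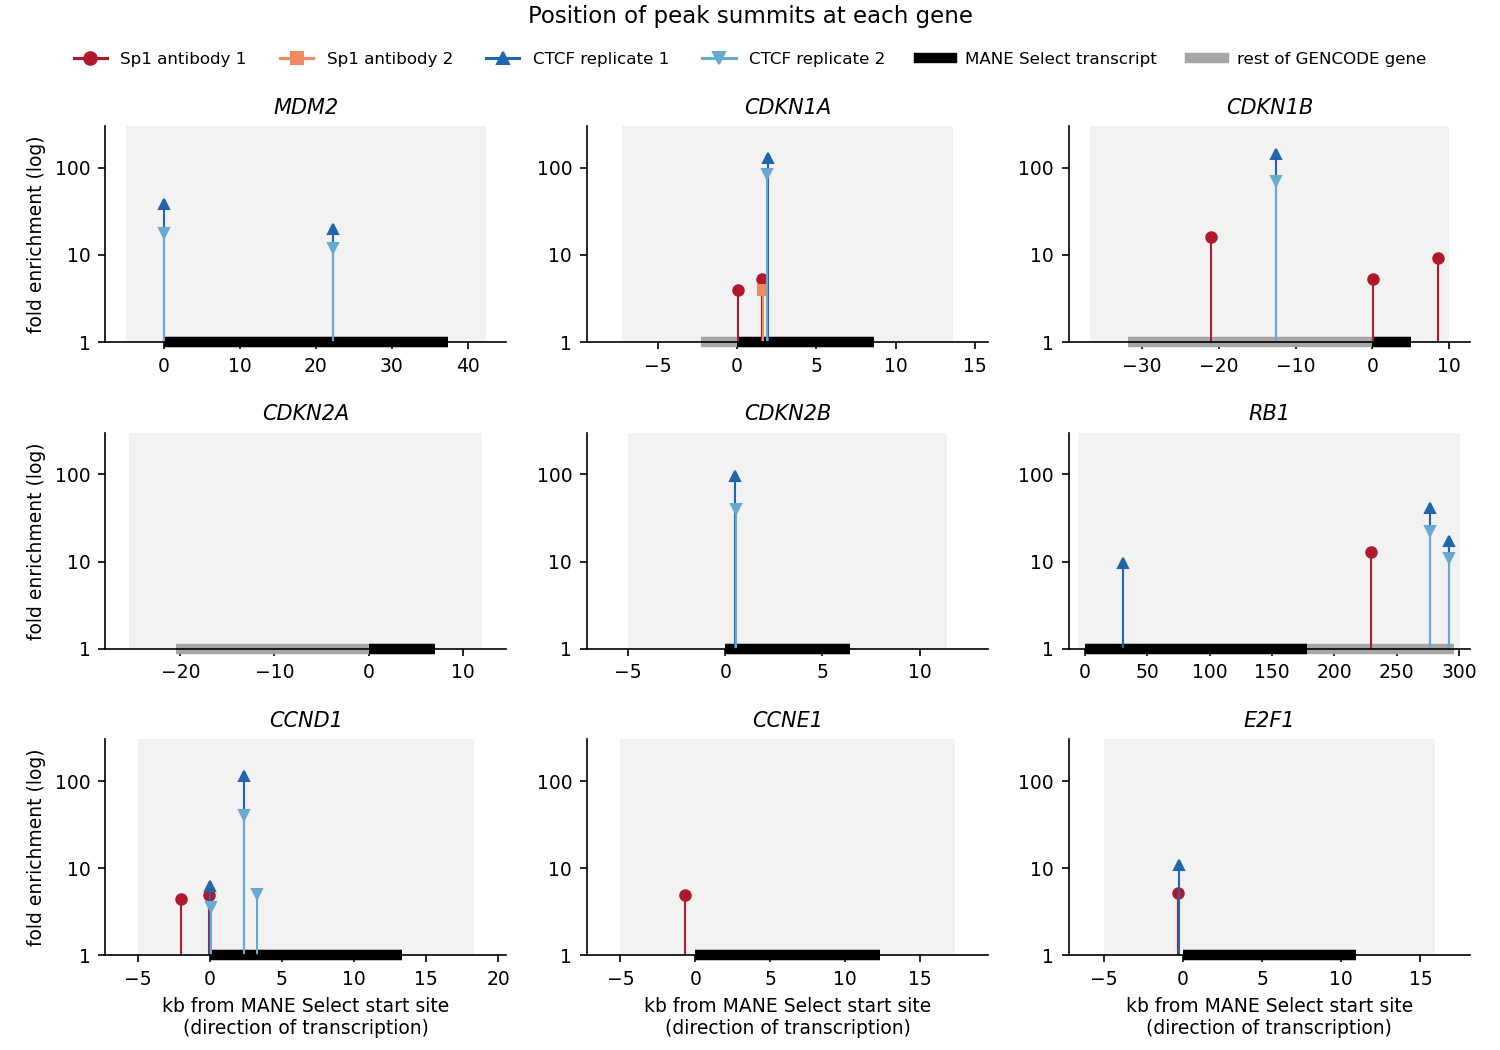
Fold enrichment of each peak (log axis) against the distance of its summit from the MANE Select start site (kb, in the direction of transcription), 1 panel per gene. The black bar is the MANE Select transcript, the grey bar the rest of the GENCODE gene and the shading the gene with 5 kb on each side. At RB1 only the CTCF replicate 1 peak at 31.0 kb lies over the black bar.

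CCND1 (ENSG00000110092.4, chr11:69641156-69654474, plus strand) encodes cyclin D1, the partner of CDK4 and CDK6. Sp1 antibody 1 had a peak 48 bp upstream of the start site, with a fold of 4.97 and a −log10 q of 7.23, and a weaker one at −2000 bp, with a fold of 4.43 and a −log10 q of 3.37. Antibody 2 had none, and its nearest summit was 264 kb away. CTCF had a weak peak at the start site, with a fold of 6.19 in replicate 1 and of 3.62 in replicate 2. The replicate 1 summit of that peak was 51 bp from the Sp1 summit.

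The strong CTCF peak of CCND1 lay in an intron, 2369 bp past the MANE start site in replicate 1. Its fold was 116 (−log10 q 796) in replicate 1 and 41.3 (−log10 q 309) in replicate 2. Its summits also lay 187 bp (replicate 1) and 181 bp (replicate 2) from the start site of another CCND1 transcript. The replicate 1 interval spanned 69643103 to 69644649 on chromosome 11 and also covered a further replicate 2 peak with a fold of 5.14. Within CCND1, this CTCF peak thus exceeded the one at the MANE start site in both replicates, and both lay within 1 kb of an annotated start site.

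CCNE1 (ENSG00000105173.14, chr19:29811991-29824312, plus strand) encodes cyclin E1, the partner of CDK2. Its only peak was with Sp1 antibody 1, 670 bp upstream of the start site, with a fold of 4.93, a −log10 q of 5.56 and a percentile of 19.4. The nearest antibody 2 summit was 20.5 kb away. CTCF summits flanked the gene at 25.6 kb and 33.9 kb in both replicates.

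E2F1 (ENSG00000101412.13, chr20:33675477-33686385, minus strand) encodes the activator restrained by the RB1 protein. Sp1 antibody 1 had a peak 286 bp upstream of the start site, with a fold of 5.18 and a −log10 q of 5.98. CTCF replicate 1 had a peak 272 bp upstream, with a fold of 10.9 and a −log10 q of 33.9, so the summits were 14 bp apart. The closest CTCF replicate 2 summit was 7.36 kb from the gene, and the closest antibody 2 summit was 11.7 kb away.

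Both Sp1 antibodies together marked 1 of the 9 genes, CDKN1A, beside 27% of all protein-coding genes. Both CTCF replicates marked 6 of the 9 beside 61.3%. With 1 library per Sp1 antibody these differences have no replicate check and were not tested.

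Near start sites the picture was similar. Counting only summits at most 1 kb from a start site of the gene, Sp1 antibody 1 marked CDKN1A, CDKN1B, CCND1, CCNE1 and E2F1, which is 5 of 9 beside 37.5% of genes, and antibody 2 had 0 of 9 beside 24.2%. CTCF had such a summit at MDM2, CDKN2B, CCND1 and E2F1 in replicate 1, which is 4 of 9 beside 32.5%, and at 3 of 9 in replicate 2 beside 24.9%.

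Longer genes more often held a CTCF peak. Among genes over 60 kb, 89.0% had a CTCF peak in replicate 1, against 52.7% of those under 20 kb. For Sp1 antibody 1 the shares were 44.1% and 40.7%, and genes of 20 to 60 kb had the highest share, 50.4%. The genes of that size here were MDM2, CDKN1B and CDKN2A, of which 1 had an antibody 1 peak and 2 a CTCF replicate 1 peak. The 5 genes under 20 kb were CDKN1A, CDKN2B, CCND1, CCNE1 and E2F1, of which 4 had an antibody 1 peak and 4 a CTCF replicate 1 peak. RB1 was the only gene of the 9 over 60 kb.

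**Figure D3:**
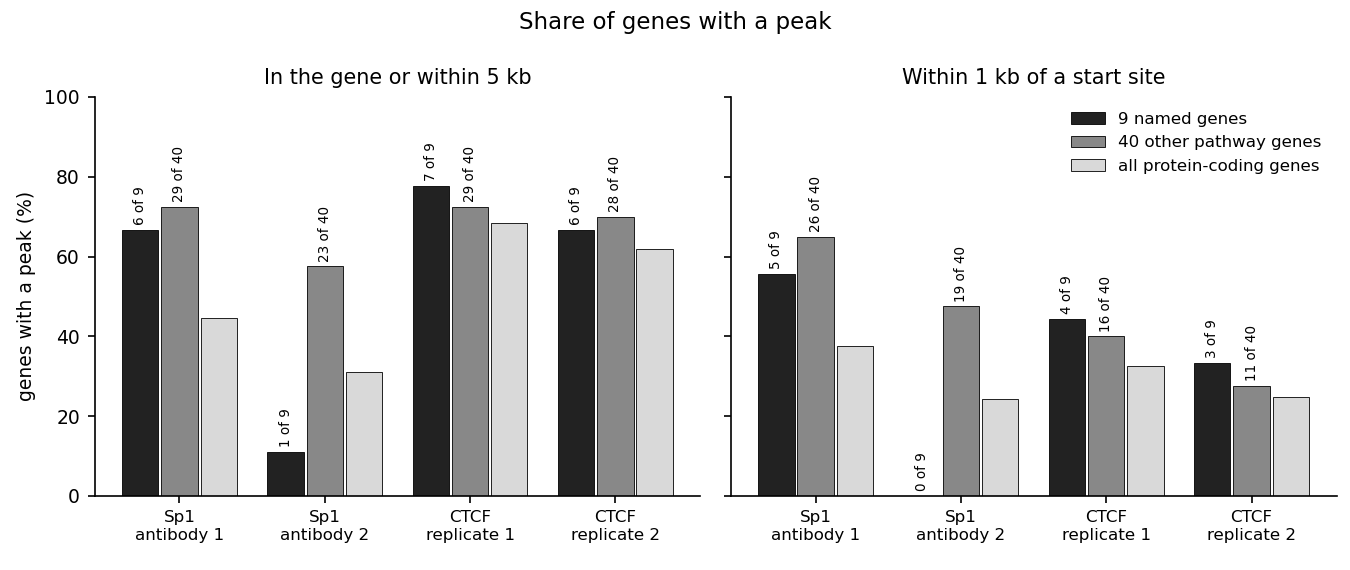
Share of genes (%) with a peak in each of the 4 lists among the 9 genes (black), 40 further pathway genes (grey) and all 19970 protein-coding genes (light grey), for summits in the gene or within 5 kb (left) and near a start site (right), with counts above the bars. For Sp1 antibody 2 the left panel shows 11.1% of the 9 genes beside 31.1% of all genes and 57.5% of the further pathway genes.

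The Sp1 peaks at these genes were mostly weak. The 10 antibody 1 peaks had folds of 3.96 to 15.9 with a median of 5.24, against a median of 7.72 over all 8706 peaks of that list, and 7 of them ranked below percentile 25. These 7 were the peaks of CDKN1A, CCND1, CCNE1 and E2F1 and the one at the MANE start site of CDKN1B. The other 3 ranked at 85.3, 77.7 and 60.7. They lay at start sites of GPR19 and a longer CDKN1B transcript, of RCBTB2 and of APOLD1, respectively. CTCF peaks covered the whole range of strength. The 11 peaks of replicate 1 ran from 6.19 to 144 with a median of 37.9, against 27.5 over all 42765 peaks, and the 10 of replicate 2 ran from 3.62 to 84.3 with a median of 19.9, against 20.0 over all 36082.

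**Figure D4:**
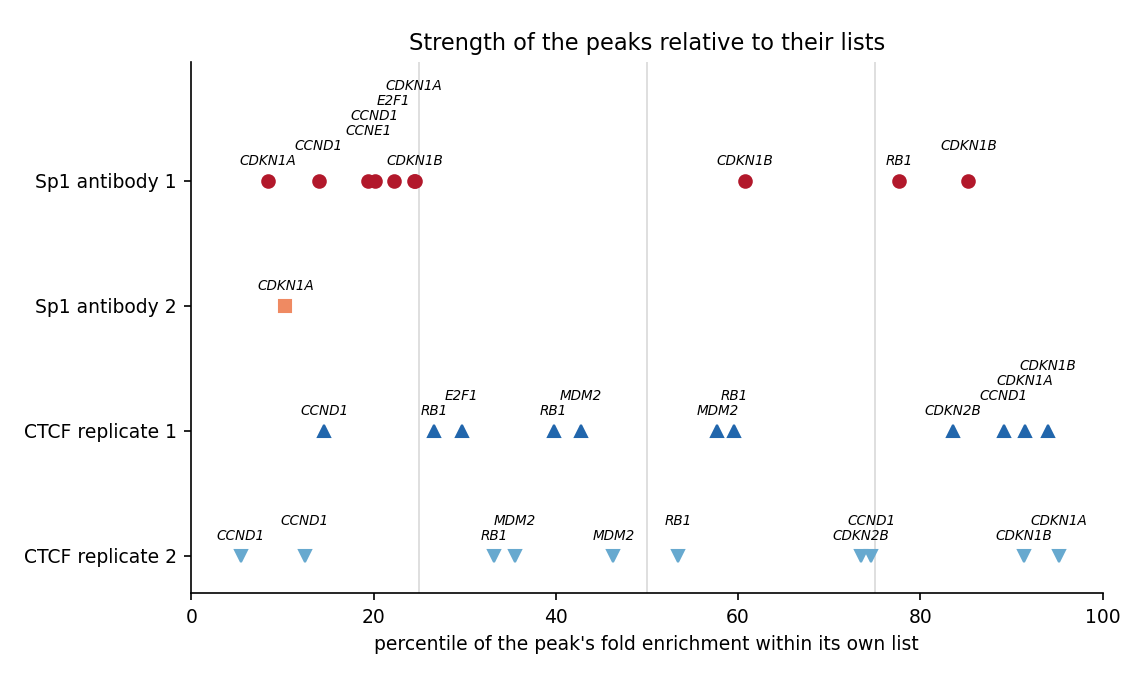
Percentile of each peak's fold enrichment within its own list (0 weakest, 100 strongest), with 1 mark per peak labelled by gene and grey lines at 25, 50 and 75. Of the 10 Sp1 antibody 1 peaks, 7 lie below 25, whereas CTCF peaks at CDKN1A and CDKN1B lie above 91 in both replicates.

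Most CTCF peaks at these genes were found in both replicates. Of the 11 replicate 1 peaks 9 were overlapped in replicate 2, against 79.8% of all replicate 1 peaks, and all 10 replicate 2 peaks were overlapped in replicate 1, against 95.4% of all replicate 2 peaks. The median log2 ratio of replicate 2 to replicate 1 fold was −0.88 over the 9 pairs (SD 0.30, range −1.49 to −0.60), near the −0.89 of all 34125 shared peaks. The lower folds of replicate 2 were thus common to the list. Summits of the pairs were a median of 11 bp apart, against 8 bp over all pairs.

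Ordered by the mean of the highest CTCF fold in each replicate, CDKN1B came first at 107 ± 51.6 (SD, n = 2), followed by CDKN1A at 106 ± 30.5, CCND1 at 78.5 ± 52.7, CDKN2B at 67.2 ± 38.7, RB1 at 31.5 ± 13.2 and MDM2 at 27.8 ± 14.3. E2F1, with a peak in replicate 1 only, is not in this order. CDKN1B and CDKN1A changed places between the replicates, and the means of all neighbours in this order differed by less than the larger SD of the pair. These SDs include the lower folds of replicate 2 that were common to the list, so they do not measure the spread of differences between genes. From CCND1 down to MDM2 the order was the same within each replicate.

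Both unshared CTCF peaks were of low to middling strength. Among replicate 1 peaks within 5 percentiles of the same fold, 67.8% were overlapped in replicate 2 for the RB1 intron peak and 78.0% for the E2F1 peak. The weak CCND1 start-site peak was found in both, although 28.9% of peaks of its strength were.

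**Figure D5:**
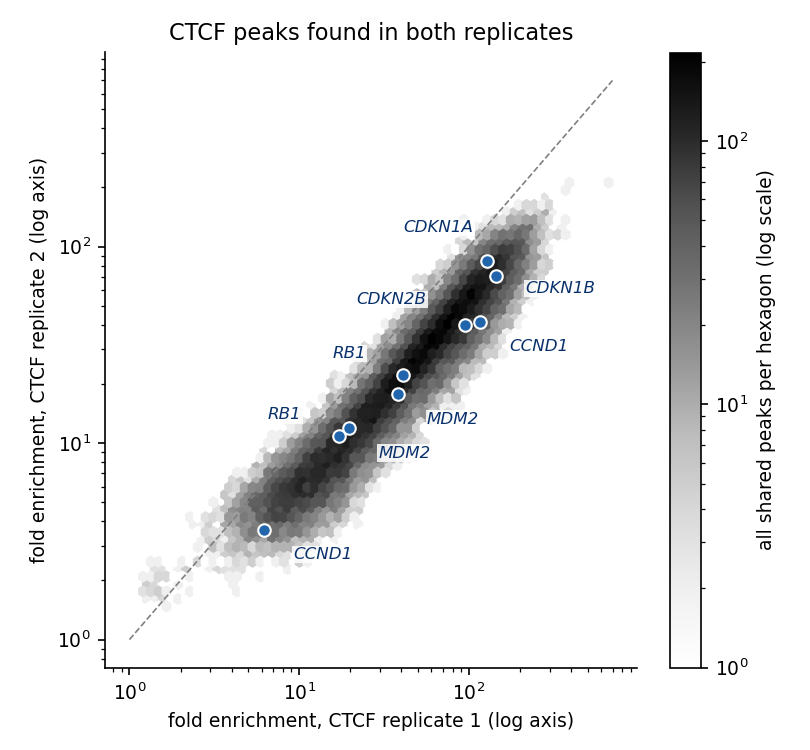
Fold enrichment of the 34125 CTCF peaks found in both replicates (log axes, replicate 1 against replicate 2, shaded by number of peaks per hexagon), with the 9 pairs at the pathway genes as labelled points and a dashed line of equal fold. All 9 points lie below the line, within the cloud of all shared peaks.

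The Sp1 antibodies overlapped at 1 of the 10 antibody 1 peaks, the intronic one at CDKN1A, against 49.2% of the whole antibody 1 list. Most of the remaining peaks were of a strength at which overlap was uncommon, with 21.3% to 28.4% of peaks of like fold overlapped. The peaks at GPR19 and the longer CDKN1B transcript, at RCBTB2 and at APOLD1 were of a strength at which 76.8%, 69.4% and 56.6% were overlapped. None of these peaks was overlapped. With 1 library per antibody, the antibody and the library cannot be told apart.

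Sp1 and CTCF intervals overlapped at 3 of the 10 antibody 1 peaks for CTCF replicate 1, those of the CDKN1A intron, the CCND1 start site and E2F1, against 28.8% of the list. For replicate 2 the count was 2 of 10 against 21.6%. The strong CTCF peaks of CDKN1B and of the CCND1 intron did not overlap Sp1.

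Within 50 bp of the summit, 2 of the 10 antibody 1 peaks held a GC box, namely the one near APOLD1 and that of E2F1, against 52.8% of the list (95% Wilson interval 51.8 to 53.9). With a window of 100 bp the count was 7 of 10 against 67.9%, so it depended on the window. A CTCF core without mismatch was present at 0 of the 11 replicate 1 peaks, against 15.8% of the list (15.5 to 16.2), and with 1 mismatch at 4, those of the MDM2 intron, CDKN2B, the CCND1 start site and E2F1, against 50.8% (50.4 to 51.3). A GC box lay within 50 bp of 3 of the 11 CTCF summits, at MDM2, the CCND1 intron and E2F1, against 8.35% (8.09 to 8.62). The intervals cover counting error only.

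RefSeq promoter sequences (hg38, 250 bases before to 50 after a start) were found for 8 of the 9 genes, all but CCND1, and the RB1 entry belonged to an internal start. Over all 35116 promoters, 45.0% held a GC box. The CCNE1 promoter held 7, a number reached by 1.495% of promoters, that of E2F1 held 6 (2.86%) and that of CDKN1A held 4 (9.06%). CDKN2B held 2, and the 2 CDKN2A promoters held 0 and 2. MDM2 held 1 in each of 4 overlapping or neighbouring windows, and CDKN1B held 1. Of the genes with 4 or more, each had an antibody 1 peak of low fold within 1 kb of a start site. CDKN1B, with 1, also had such a peak, as did CCND1, which had no promoter sequence here. The CCNE1 summit, 670 bp upstream of the start site, lay outside the promoter sequence that held its 7 GC boxes.

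Among 40 further genes of the 2 pathways, 29 (72.5%) had an Sp1 antibody 1 peak, 23 (57.5%) an antibody 2 peak, 29 a CTCF replicate 1 peak and 28 (70%) a CTCF replicate 2 peak. Over all genes the shares were 44.5%, 31.1%, 68.3% and 61.8%. The 40 genes were listed with earlier results of these data known. Of the 18 genes of the p53 branch 15 had an antibody 1 peak, with FAS, ZMAT3 and BTG2 without one, and 11 had an antibody 2 peak. Of the 22 genes of the RB branch 14 had an antibody 1 peak and 12 an antibody 2 peak. CTCF replicate 1 had a peak at 11 of the 18 and 18 of the 22, and replicate 2 at 12 and 16. A peak in all 4 lists was present at 14 of the 40 (35%), beside 18.8% of all genes. The 5 of these with the highest Sp1 fold in either list are given with antibody 1 before antibody 2, and the lists rank them differently. TP53I3, a p53 target, had folds of 14.1 and 54.4. XPC, a DNA damage sensor, had 20.1 and 5.41, and CDKN2D, which encodes the p19 kinase inhibitor, had 16.1 and 11.2. CDC25A, a phosphatase that activates cyclin-dependent kinases, had 13.9 and 8.60, and PPM1D, a phosphatase that dampens p53 signalling, had 13.8 and 3.947. The antibody 1 peak of TP53I3 and the antibody 2 peak of CDKN2D were not within 1 kb of a start site of the gene. CCNA2, which encodes cyclin A2, and RBL2, which encodes the pocket protein p130, had no peak in any list.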

How the data were processed

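Processed files of a ChIP-seq series were used, and the 9 genes and the pathway lists were chosen with earlier results of these data known. Per the submitters' processing notes, which list tools and versions without their roles, and the study's methods for the order of steps, reads were trimmed with cutadapt 2.6, aligned to hg38 with Bowtie2 2.4.5, filtered with SAMtools 1.15.1 and peaks called per library with MACS2 2.2.7.1. These versions are those of the notes, and the methods name other versions of Bowtie2 and SAMtools and call the peak caller MACS3. Of 8 libraries, 5 have a peak list here, and the 3 inputs were not used. The deposited fold enrichment is a linear ratio over the control, the deposited −log10 p and −log10 q come from the authors' peak caller, and the deposited score was not used. The lowest −log10 q was between 1.30 and 1.43. The methods describe a liberal p-value cutoff, no local background and merged control replicates for calls that feed a reproducibility analysis. The deposited lists end at the −log10 q given above, which is no such p-value cutoff, and whether that control was used for them is not stated. Depth is unknown, because the lists hold no read counts.

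Summits were placed on GENCODE 44 (hg38) genes with Python 3.11.15, numpy 2.4.6 and pysam 0.24.0. Overlap meant at least 1 shared bp. Motifs were the GC box GGGCGG, a longer GC box GGGGCGGGG, which contains it, and a 12-base CTCF core, searched on both strands. The share of the 19970 genes with a peak served as background. The lists had 8706 (Sp1 antibody 1), 5973 (antibody 2), 42765 and 36082 (CTCF) and 106 (IgG) peaks. Since Sp1 had 1 library per antibody and CTCF 2 replicates, counts and values are given and no p-value was computed. All 9 genes are named with their peaks, further pathway genes by a rule (a peak in all 4 lists with the 5 highest Sp1 folds, or none in any list), the 2 genes nearest to a gene found in all 4 lists by their log2 folds, and neighbouring genes are named where their start site lay within 1 kb of a peak. FAS, ZMAT3 and BTG2 were named after their values were seen. The window of the strongest Sp1 peak of CDKN1B is not reported here. Scripts were tested on simulated data.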

Additional observations from a re-analysis of the deposited data

How the results depend on the processing

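Over 83 alternatives, 73 left the count within 1.5 times its value or the ratio within the replicate spread, and 10 moved it. Some of the 73 had no room to move a count. The lowest −log10 q at the 9 genes was 3.37, so a cutoff of 3 removed no peak there. The longer GC box cannot raise a count of 0. Counting only summits inside the gene lowered the Sp1 antibody 1 genes from 6 to 3 and its peaks from 10 to 5. A window of 10 kb raised the antibody 2 peaks from 1 to 2, and a promoter window of 5 kb raised its promoter genes from 0 to 1. The antibody 1 peaks with a GC box went from 2 to 7 within 100 bp and to 1 with the longer box. Allowing 1 mismatch raised the CTCF core from 0 to 4 in replicate 1 and from 0 to 3 in replicate 2. Of the further pathway genes, 16 in CTCF replicate 1 and 11 in replicate 2 kept a peak when it had to be at most 1 kb from a start site, instead of 29 and 28. The genes with CTCF in both replicates numbered 6, against 6 without replicate 1 and 7 without replicate 2. Using the MANE transcript in place of the gene span, chosen after seeing the data, left 5 (antibody 1), 1 (antibody 2), 6 (CTCF replicate 1) and 4 (replicate 2) genes with a peak. CDKN1B then lost its CTCF peaks and RB1 kept only its replicate 1 intron peak. No paired analysis was possible because numbered replicates exist for CTCF and its inputs alone, and inputs were not used.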
